A study of Mus musculus with 12 samples.

Results

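The genes described here are 36 genes of the G2 phase and mitosis, taken by symbol from a fixed list and found, all 36, among the 15663 genes of the tables deposited for mouse hearts at embryonic day 9.5. They fall by role into 6 cyclins, CDK1 and activators, 4 mitotic kinases, 4 subunits of the chromosomal passenger complex, 5 genes of the spindle checkpoint and the anaphase-promoting complex, 3 centromere and kinetochore genes, 6 spindle motors and microtubule proteins, 4 genes of chromosome structure and 4 genes of cytokinesis. RNA was sequenced from 3 libraries in each of 4 genotypes of strain C57/BL 6. Double mutant hearts were NkxCre.Asb2fl/fl.Flnafl/fl, Asb2 cKO hearts were NkxCre.Asb2fl/fl, and the hearts called Flna-labelled here were NkxCre.Asb2fl/+.Flnafl/fl. Control hearts were NkxCre.Asb2fl/+, so every group carried the Cre driver and at least 1 floxed Asb2 allele. The series' design text speaks of single mutants, double mutants and a pair of control groups. By elimination the group with floxed Flna and 1 floxed Asb2 allele would be the other control, which its genotype label does not state. Each heart also holds cells in which an Nkx-driven Cre is not active, and these keep both genes. The labels do not say whether a library is 1 heart or a pool, so the p-values weigh differences against a spread among libraries that may be technical.

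ASB2 is the substrate-recognition subunit of a ubiquitin ligase known to target filamins. Flna encodes one of these, filamin A, a protein that crosslinks actin. Entry into mitosis is driven by cyclin A and cyclin B bound to CDK1, which CDC25 phosphatases activate and the PLK1 and Aurora kinases reinforce. The spindle checkpoint holds the anaphase-promoting complex until chromosomes are attached, after which cyclins are destroyed and the central spindle directs cytokinesis. Transcripts of these genes are low in resting cells and rise late in the cell cycle, largely through promoters with CCAAT boxes, bound by NF-Y, and a cell cycle homology region (CHR), bound by the DREAM and MYB-MuvB complexes, so their sum in a tissue is a usual measure of how much of it is dividing. The heart tube at this stage is a growing muscle with dividing cardiomyocytes.

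Promoter windows for 30 of the 36 genes, from 250 bases before to 50 bases after the start, were read from RefSeq (GRCm38.p6). They were searched on both strands for CCAAT and for the CHR, spelled TTTGAA, or TTCGAA in its other form. The 5 windows below are shown because the results turn on their genes: Racgap1 and Kif23, partners in the centralspindlin complex, and Mad2l1, all lower in double mutant hearts, and Top2a and Mki67, whose levels in double mutant hearts did not pass the test. Capitals mark CCAAT and CHR matches on either strand. Racgap1 (ENSMUSG00000023015) is shown from chr15:99651607-99651906, Kif23 (ENSMUSG00000032254) from chr9:61946750-61947049, Mad2l1 (ENSMUSG00000029910) from chr6:66534971-66535270, Top2a (ENSMUSG00000020914) from chr11:99024140-99024439 and Mki67 (ENSMUSG00000031004) from chr7:135716330-135716629, each 5′ to 3′ on the gene's strand, which is the plus strand for Mad2l1 and the minus strand for the others.
Racgap1: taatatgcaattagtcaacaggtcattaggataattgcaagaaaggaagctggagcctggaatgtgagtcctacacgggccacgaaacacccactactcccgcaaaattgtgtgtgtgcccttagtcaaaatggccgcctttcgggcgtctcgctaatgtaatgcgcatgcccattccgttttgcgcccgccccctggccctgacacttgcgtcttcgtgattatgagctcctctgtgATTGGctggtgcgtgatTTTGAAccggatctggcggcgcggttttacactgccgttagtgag
Kif23: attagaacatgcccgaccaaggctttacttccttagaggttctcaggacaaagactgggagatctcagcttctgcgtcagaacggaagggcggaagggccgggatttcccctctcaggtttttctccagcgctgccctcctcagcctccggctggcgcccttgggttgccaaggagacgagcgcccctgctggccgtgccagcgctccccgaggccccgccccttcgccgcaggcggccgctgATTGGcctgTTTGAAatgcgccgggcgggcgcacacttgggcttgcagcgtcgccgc
Mad2l1: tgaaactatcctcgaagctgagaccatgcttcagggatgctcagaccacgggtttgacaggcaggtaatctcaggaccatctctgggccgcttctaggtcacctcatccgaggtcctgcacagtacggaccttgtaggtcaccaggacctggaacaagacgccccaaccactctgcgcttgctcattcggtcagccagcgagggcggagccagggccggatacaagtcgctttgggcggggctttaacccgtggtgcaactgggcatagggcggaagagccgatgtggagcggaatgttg
Top2a: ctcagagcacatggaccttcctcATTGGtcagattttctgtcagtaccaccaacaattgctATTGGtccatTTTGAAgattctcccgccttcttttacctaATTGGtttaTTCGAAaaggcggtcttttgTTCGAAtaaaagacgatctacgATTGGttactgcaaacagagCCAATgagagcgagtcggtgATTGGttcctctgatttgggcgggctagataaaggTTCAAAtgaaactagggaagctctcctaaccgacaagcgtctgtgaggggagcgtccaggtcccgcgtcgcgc
Mki67: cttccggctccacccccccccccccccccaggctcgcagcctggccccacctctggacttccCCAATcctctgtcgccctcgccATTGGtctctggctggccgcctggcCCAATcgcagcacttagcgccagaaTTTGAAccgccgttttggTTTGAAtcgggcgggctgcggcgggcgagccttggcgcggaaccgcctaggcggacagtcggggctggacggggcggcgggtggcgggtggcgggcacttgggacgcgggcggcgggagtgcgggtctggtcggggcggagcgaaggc

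The Racgap1 and Kif23 windows each held 1 CCAAT and 1 CHR match close together at the start, the Top2a window held 6 and 4, the Mki67 window held 3 and 2, and the Mad2l1 window held neither string. The Mad2l1 window, however, ends before the gene's start in GENCODE M21, at position 66535390, so bases at that start were not searched. Among the 30 windows, 26 (86.7%) held CCAAT, against 37.9% of 27025 windows with 1 a gene, and 24 (80%) held a CHR string, against 19.4%. Both strings stood in 23 windows (76.7%), against 7.70% of all windows. Of the 13 genes with a window that were lower in double mutant hearts than in control hearts, 9 (69.2%) held a CHR string, and of the other 17 genes 15 (88.2%) did. Matches were thus found in most genes of both kinds, and an absent match says only that these letters are not in this window. Windows for Ccna2, Cdc25c, Aurkb, Incenp, Kif20a and Tpx2 were not used here.

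Levels are in CPM (reads relative to library size, on the authors' scaling), and each difference is a log2 fold change on log2(CPM + 0.5) from limma, fitted on all genes of the 2 groups with a mean of at least 1 CPM. The adjusted p is limma's after Benjamini-Hochberg adjustment over all those genes, and a gene is said to rise or fall where it is below 0.05. All 36 genes were measured in every library, the least with 590 reads, in libraries of 25954539 to 42473118 reads. Together they took 0.471% to 0.661% of CPM. In bulk hearts, fewer dividing cells and less RNA per dividing cell cannot be told apart.

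The labels were checked on the targeted genes. Asb2 was at 122, 121 and 153 CPM in double mutant hearts, 77.8, 163 and 115 CPM in Asb2 cKO hearts, 125, 113 and 197 CPM in Flna-labelled hearts and 289, 183 and 218 CPM in control hearts. It was lower than control in double mutant hearts (log2 fold change −0.78, adjusted p = 0.00724) and Asb2 cKO hearts (−0.99, adjusted p = 0.0248), and the difference of double mutant from Flna-labelled hearts did not pass (−0.10, adjusted p = 0.737). Flna-labelled hearts, Asb2fl/+ like control hearts, were at −0.68 against control hearts without passing (adjusted p = 0.334). Flna went against its label: it was at 1012, 1012 and 1146 CPM in double mutant hearts and 958, 1011 and 990 CPM in Flna-labelled hearts, against 490.3, 554 and 721 CPM in control hearts. Its log2 fold change over control hearts was 0.86 (adjusted p = 0.00255) in double mutant hearts and 0.76 (adjusted p = 0.147) in Flna-labelled hearts. Asb2 cKO hearts, with no floxed Flna, were also above control hearts, at 1032, 869 and 725 CPM (log2 fold change 0.58, adjusted p = 0.0464). Counts over a whole gene can miss the loss of part of it, and the exons deleted are not given in the sources used here, so Flna-labelled means labelled so. The tissue label held: all 12 cardiomyocyte markers were detected in every library, Actc1 at 5334 to 12755 CPM.

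Transcripts of many G2 and mitosis genes were lower in double mutant hearts than in control and Flna-labelled hearts. Against control hearts, 17 of the 36 genes fell and 1 rose, where 32.3% of all genes tested passed the threshold, 16.7% downwards and 15.6% upwards. The median log2 fold change of the 36 genes was −0.31, against 0.0052 over all genes, and 31 of the 36 lay below 0. Against Flna-labelled hearts, 20 of the 36 genes fell and 0 rose by limma, where 31.5% of all genes passed, 16.3% downwards and 15.1% upwards, and the median was −0.34 against −0.019 over all genes. With libraries rescaled without hemoglobin genes, 25 of the 36 fell against Flna-labelled hearts, and calls over all genes split into 1694 higher and 2814 lower, against 2113 higher and 2281 lower as deposited. The falls were modest. The largest came to −0.72 against control hearts (Racgap1) and −0.76 against Flna-labelled hearts (Mad2l1). In 21 genes all double mutant libraries lay below all control libraries, as did 24.2% of all genes, and in 3 they lay above, as did 23.6%. In 24 genes they lay below all Flna-labelled libraries, as did 25.1% of all genes, and in 1 above, as did 22.4%. The genes that fell included cyclins, kinases, passenger complex subunits and centralspindlin, and the antigen Ki-67, topoisomerase IIα and the large kinetochore proteins CENP-E and CENP-F did not pass in either comparison.

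**Figure D1:**
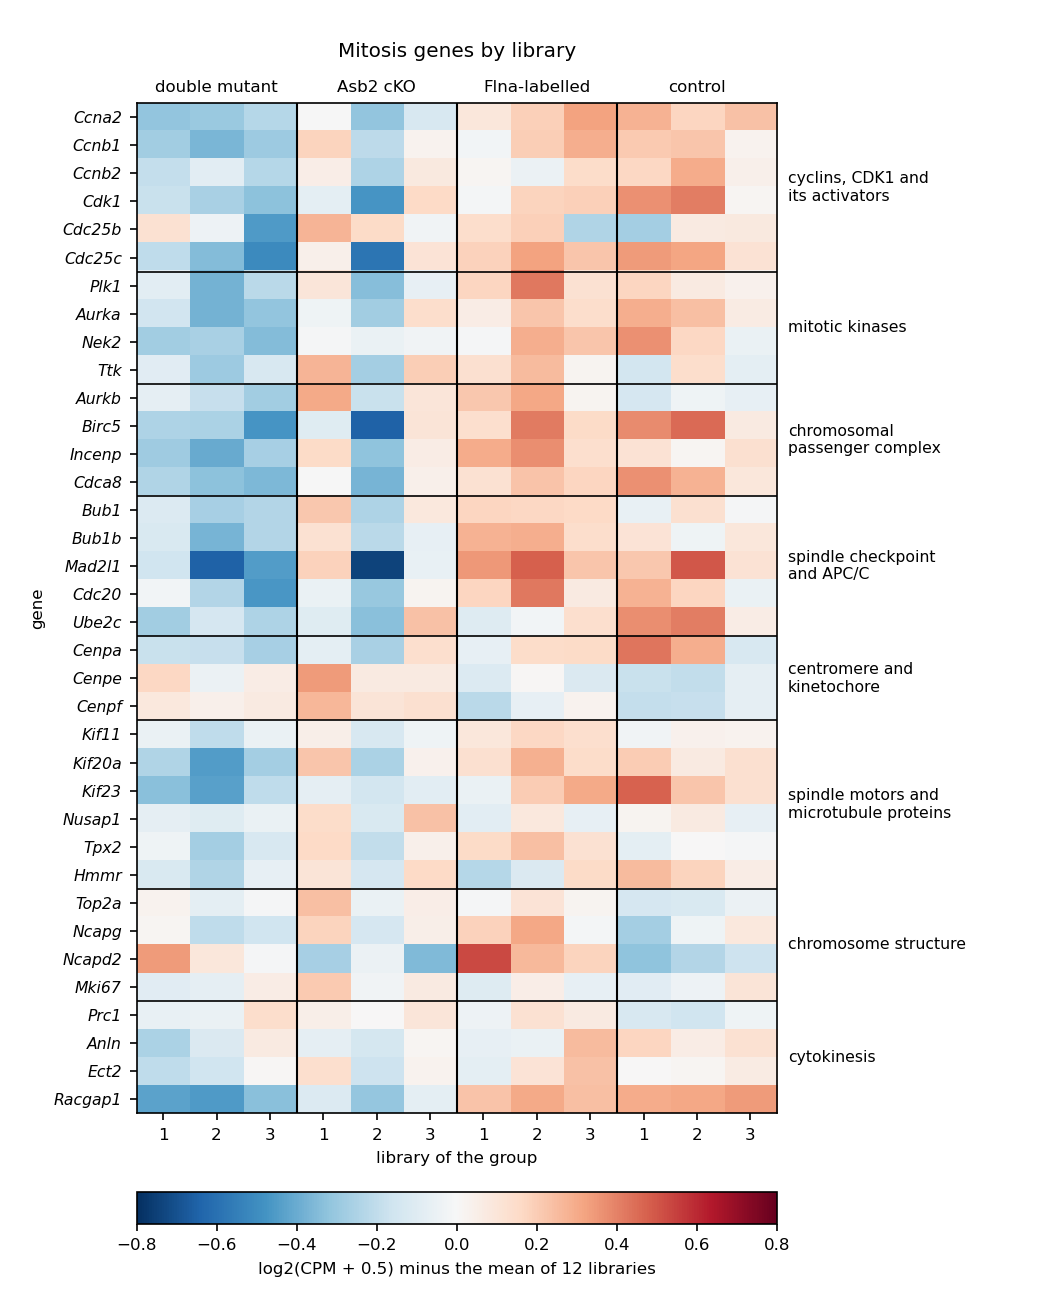
Heat map of 36 genes (rows, grouped by role) in 12 libraries (columns, by group), coloured by log2(CPM + 0.5) minus the gene's mean over all libraries. The double mutant columns are blue for most genes of the upper groups, Asb2 cKO library 2 is blue beside 2 paler libraries, and Mki67, Top2a, Cenpe and Cenpf show no such drop.

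Cyclins and their kinase fell together. Of the 6 cyclins, CDK1 and activators, 5 fell in double mutant hearts against control hearts and 4 fell against Flna-labelled hearts. Ccna2, cyclin A2, which acts with CDK2 in S phase and with CDK1 at mitotic entry, was at 191, 194 and 204 CPM in double mutant hearts, 237, 191 and 218 CPM in Asb2 cKO hearts, 253, 272 and 297 CPM in Flna-labelled hearts and 289, 268 and 281 CPM in control hearts. Every double mutant and Asb2 cKO library lay below every Flna-labelled and control library. The log2 fold change in double mutant hearts was -0.51 ± 0.10 (SE, adjusted p = 0.00377) against control hearts and -0.48 ± 0.090 (SE, adjusted p = 0.00532) against Flna-labelled hearts. Ccnb1, cyclin B1, the main partner of CDK1, stood at 69.0, 65.0 and 68.5 CPM in double mutant hearts, 94.7, 72.5 and 85.5 CPM in Asb2 cKO hearts, 82.4, 96.1 and 102 CPM in Flna-labelled hearts and 97.0, 97.9 and 85.3 CPM in control hearts. The 3 double mutant libraries were lower than each of the other 9, a pattern shared by 4 of the 36 genes (Ccnb1, Nek2, Kif23 and Racgap1) and by 1.14% of all genes. Ccnb1 differed by -0.46 ± 0.10 (SE, adjusted p = 0.0082) from control hearts and by -0.46 ± 0.10 (SE, adjusted p = 0.00971) from Flna-labelled hearts.

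Cdk1, the kinase itself, was at 181, 171 and 163 CPM in double mutant hearts, 194, 148 and 229 CPM in Asb2 cKO hearts, 203, 232 and 234 CPM in Flna-labelled hearts and 265, 272 and 207 CPM in control hearts. Double mutant libraries lay below all Flna-labelled and control libraries, while of the Asb2 cKO libraries 1 lay below every double mutant library and another within the Flna-labelled and control range. The difference was -0.52 ± 0.12 (SE, adjusted p = 0.011) from control hearts and -0.37 ± 0.092 (SE, adjusted p = 0.0166) from Flna-labelled hearts, the second a call held in 15 of 18 alternatives. For Cdc25c, a phosphatase that activates CDK1, levels were 29.4, 26.6 and 23.6 CPM in double mutant hearts, 34.9, 22.4 and 36.5 CPM in Asb2 cKO hearts, 38.6, 42.4 and 39.5 CPM in Flna-labelled hearts and 43.0, 42.2 and 36.7 CPM in control hearts. It fell by limma in double mutant hearts, at -0.61 ± 0.13 (SE, adjusted p = 0.00678) against control hearts and -0.59 ± 0.11 (SE, adjusted p = 0.0058) against Flna-labelled hearts, with no overlap in either. Ccnb2, cyclin B2, fell against control hearts alone, at -0.33 ± 0.11 (SE, adjusted p = 0.0362), and was at -0.21 ± 0.089 (SE, adjusted p = 0.109) against Flna-labelled hearts. Its call against control hearts held in 11 of 18 alternative settings. Cdc25b, the related phosphatase that acts earlier in G2, was at -0.081 and -0.15 and passed in neither comparison.

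**Figure D2:**
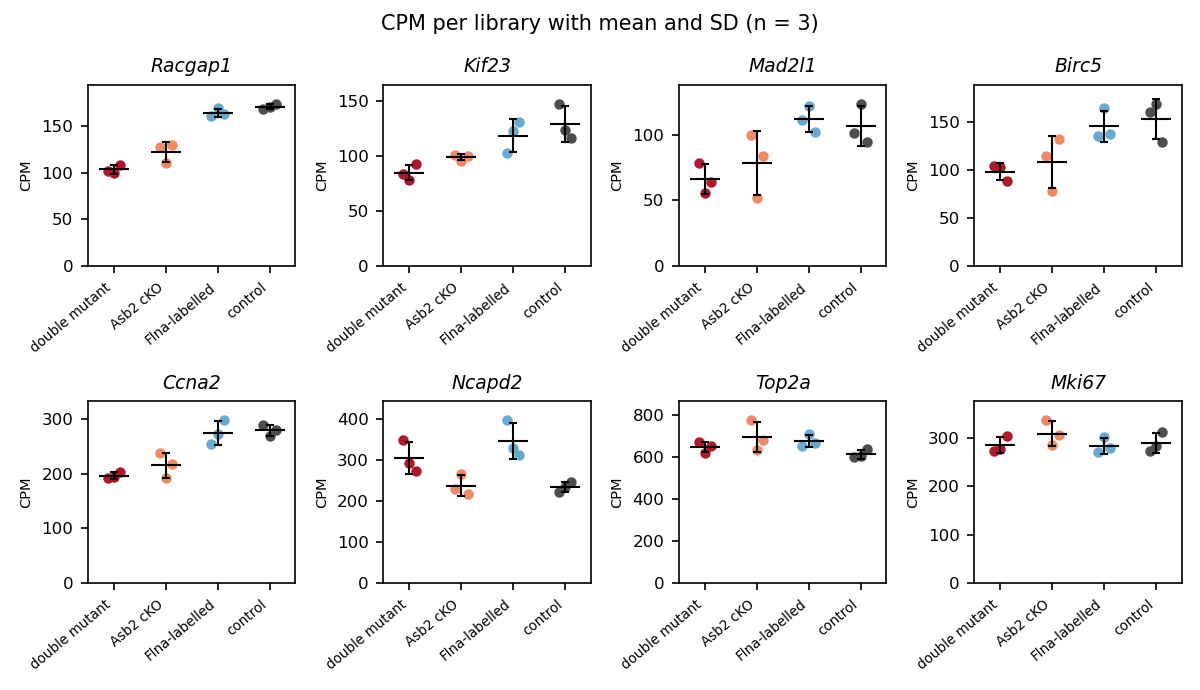
CPM of 8 genes in each library (points), with the group mean and SD (n = 3), in double mutant, Asb2 cKO, Flna-labelled and control hearts. Racgap1, Kif23, Mad2l1, Birc5 and Ccna2 are lowest in double mutant hearts on average, Ncapd2 is high in double mutant and Flna-labelled hearts, and Top2a and Mki67 differ little between groups.

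Of the 4 mitotic kinases, 3 fell in double mutant hearts in each comparison. Aurka, Aurora A, which matures the spindle poles, was at 111, 94.7 and 98.9 CPM in double mutant hearts, 121, 102 and 136 CPM in Asb2 cKO hearts, 129, 144 and 136 CPM in Flna-labelled hearts and 151, 145 and 129 CPM in control hearts. Double mutant libraries lay below those of Flna-labelled and control hearts, with differences of -0.42 ± 0.093 (SE, adjusted p = 0.00985) from Flna-labelled hearts and -0.48 ± 0.11 (SE, adjusted p = 0.00871) from control hearts. Nek2, a kinase that splits the centrosomes, was at 61.9, 62.7 and 58.9 CPM in double mutant hearts, 74.9, 72.4 and 73.8 CPM in Asb2 cKO hearts, 74.6, 92.4 and 87.9 CPM in Flna-labelled hearts and 97.2, 84.4 and 72.5 CPM in control hearts. The Nek2 difference was -0.46 ± 0.12 (SE, adjusted p = 0.0184) from control hearts, which lost its call in 3 of 18 alternatives, and -0.46 ± 0.10 (SE, adjusted p = 0.00992) from Flna-labelled hearts, which kept it in all 18. Plk1, Polo-like kinase 1, which acts from mitotic entry to cytokinesis, stood at 111, 90.1 and 101 CPM in double mutant hearts, 126, 92.5 and 112 CPM in Asb2 cKO hearts, 132, 158 and 128 CPM in Flna-labelled hearts and 132, 123 and 120.2 CPM in control hearts. Plk1 fell, at -0.47 ± 0.11 (SE, adjusted p = 0.0153) against Flna-labelled hearts, a call held in 16 of 18 alternatives. Against control hearts the value was -0.32 ± 0.11 (SE, adjusted p = 0.0474), a call that held in 7 of 18 alternatives, with adjusted p between 0.0353 and 0.192 over them. Ttk, the checkpoint kinase MPS1, was at -0.14 and -0.30 and did not pass.

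The chromosomal passenger complex, which corrects faulty attachments and later acts in cytokinesis, has Aurora B as its kinase and survivin (Birc5), Incenp and borealin (Cdca8) as its other subunits. In double mutant hearts 3 of these 4 genes fell against control hearts and all 4 fell against Flna-labelled hearts. Birc5 was at 104, 103 and 88.8 CPM in double mutant hearts, 115, 78.6 and 132 CPM in Asb2 cKO hearts, 136, 165 and 138 CPM in Flna-labelled hearts and 161, 169 and 130.0 CPM in control hearts. Its differences were -0.63 ± 0.13 (SE, adjusted p = 0.005) from control hearts and -0.56 ± 0.11 (SE, adjusted p = 0.00601) from Flna-labelled hearts, with no overlap in either. Within Asb2 cKO hearts, library 2 was the lowest of all 12 for this gene. Cdca8 had 114, 107 and 105 CPM in double mutant hearts, 135, 104 and 139 CPM in Asb2 cKO hearts, 147, 158 and 152 CPM in Flna-labelled hearts and 174, 163 and 143 CPM in control hearts. The fall in double mutant hearts was -0.55 ± 0.11 (SE, adjusted p = 0.00416) against control hearts and -0.48 ± 0.081 (SE, adjusted p = 0.00322) against Flna-labelled hearts. Incenp, the scaffold, was at 100.32, 92.4 and 102 CPM in double mutant hearts, 136, 97.6 and 127 CPM in Asb2 cKO hearts, 150.1, 158 and 134 CPM in Flna-labelled hearts and 133, 124 and 134 CPM in control hearts. It fell, at -0.58 ± 0.093 (SE, adjusted p = 0.0026) against Flna-labelled hearts and at -0.40 ± 0.10 (SE, adjusted p = 0.0118) against control hearts, where the call held in 17 of 18 alternatives. Aurkb stood apart from its partners against control hearts, with 71.3, 65.8 and 61.6 CPM in double mutant hearts, 92.6, 66.1 and 80.2 CPM in Asb2 cKO hearts, 87.0, 93.0 and 75.9 CPM in Flna-labelled hearts and 68.0, 73.0 and 71.6 CPM in control hearts. Double mutant and control libraries overlapped, and the difference of -0.10 ± 0.10 (SE, adjusted p = 0.497) did not pass. Against Flna-labelled hearts Aurkb fell, at -0.36 ± 0.11 (SE, adjusted p = 0.0311), and that call held in 13 of 18 alternatives.

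In the spindle checkpoint and the anaphase-promoting complex, 2 of 5 genes fell against control hearts and 4 of 5 against Flna-labelled hearts. Mad2l1 encodes MAD2, which binds and holds back the activator CDC20, and was at 78.2, 55.7 and 64.1 CPM in double mutant hearts, 99.6, 52.1 and 83.7 CPM in Asb2 cKO hearts, 111, 122 and 102 CPM in Flna-labelled hearts and 101, 123 and 94.7 CPM in control hearts. Its differences were -0.69 ± 0.15 (SE, adjusted p = 0.0066) and -0.76 ± 0.13 (SE, adjusted p = 0.00377) from control and Flna-labelled hearts, and no double mutant library reached any library of those groups. Asb2 cKO library 2 was again the lowest of all. Bub1b, the checkpoint protein BUBR1, was at 159, 134 and 147 CPM in double mutant hearts, 188, 149 and 165 CPM in Asb2 cKO hearts, 210.0, 212 and 190.5 CPM in Flna-labelled hearts and 187, 169 and 185 CPM in control hearts. It fell against Flna-labelled hearts by -0.48 ± 0.10 (SE, adjusted p = 0.00669), and was at -0.30 ± 0.11 (SE, adjusted p = 0.0534) against control hearts, where the libraries did not overlap but the threshold was missed. Bub1, its kinase relative, had 108, 97.0 and 98.9 CPM in double mutant hearts, 135, 98.1 and 124 CPM in Asb2 cKO hearts, 131, 131 and 130.4 CPM in Flna-labelled hearts and 112, 127 and 116 CPM in control hearts. Bub1 fell, at -0.37 ± 0.081 (SE, adjusted p = 0.0101) against Flna-labelled hearts and was at -0.22 ± 0.10 (SE, adjusted p = 0.12) against control hearts. Cdc20 differed in the same way, at -0.46 ± 0.13 (SE, adjusted p = 0.0299) against Flna-labelled hearts, a call held in 13 of 18 alternatives, and -0.37 ± 0.14 (SE, adjusted p = 0.0597) against control hearts.

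Ube2c, the ubiquitin-conjugating enzyme that works with the anaphase-promoting complex, went the other way round. It was at 181, 199.7 and 184 CPM in double mutant hearts, 205, 174 and 258 CPM in Asb2 cKO hearts, 205, 217 and 241 CPM in Flna-labelled hearts and 284, 291 and 229 CPM in control hearts. It fell, at -0.50 ± 0.12 (SE, adjusted p = 0.0104) against control hearts and was at -0.23 ± 0.094 (SE, adjusted p = 0.0954) against Flna-labelled hearts, in which it was itself lower than in control hearts without passing, at -0.27 ± 0.12 (SE, adjusted p = 0.374). Per kilobase of deposited gene length, Cdc20 and Ube2c had the highest levels of the 36 genes in control hearts, at 97.7 and 96.8 CPM per kb, and Cdc25b the lowest, at 6.86 CPM per kb.

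**Figure D3:**
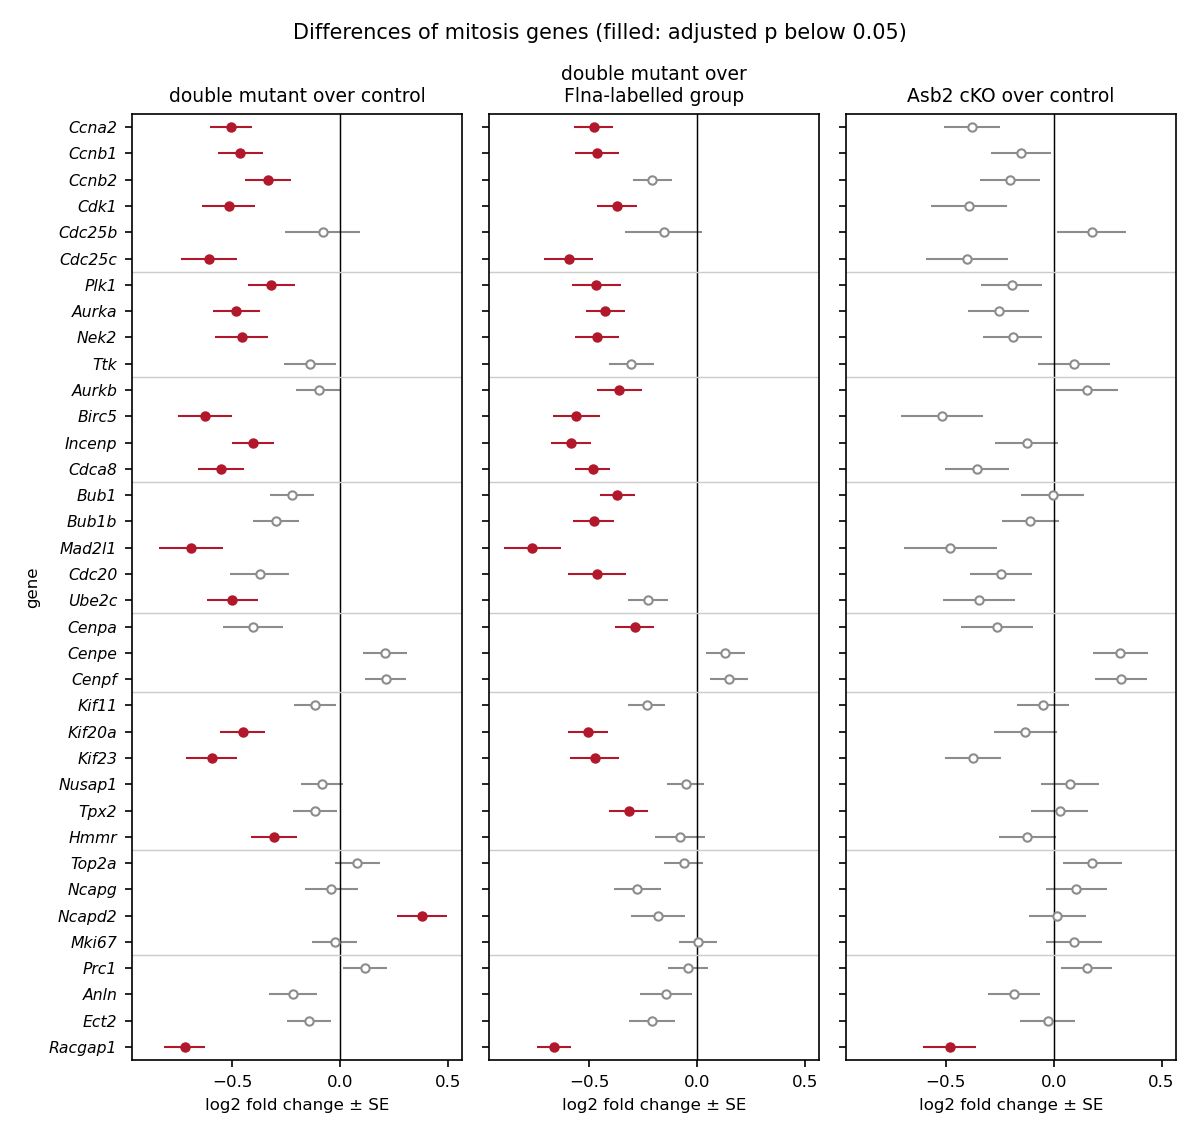
Log2 fold change ± SE of 36 genes, by role, for double mutant over control, double mutant over Flna-labelled and Asb2 cKO over control hearts (3 libraries a group). Filled red points passed an adjusted p of 0.05: 18, 20 and 1 genes, of which only Ncapd2 in the left panel lies above 0.

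Against control hearts 0 of the 3 centromere and kinetochore genes passed by limma, edgeR called 0 and DESeq2 called 1, Cenpa. Before adjustment 2 of the 3 had a p below 0.05, against 6146 of all 14015 genes tested. Cenpa, the histone variant that marks the centromere, was at -0.40 against control hearts, where 5 of 18 alternatives called it lower. The authors' own comparison also had it lower there (log2 fold change -0.42, FDR 0.0329). Against Flna-labelled hearts Cenpa fell, at -0.29 ± 0.091 (SE, adjusted p = 0.0404), a call held in 9 of 18 alternatives. Cenpe, a kinetochore motor, and Cenpf, a large kinetochore protein, had values above 0 in both comparisons. For Cenpe these were 0.21 against control hearts and 0.13 against Flna-labelled hearts, and for Cenpf 0.21 and 0.15.

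The spindle genes that fell included Kif23 and Kif20a, whose motors act at the central spindle. Of 6 genes in this group, 3 fell against control hearts and 3 against Flna-labelled hearts. Kif23 encodes MKLP1, the motor of centralspindlin, and was at 83.9, 78.4 and 92.2 CPM in double mutant hearts, 101, 95.6 and 100.02 CPM in Asb2 cKO hearts, 102, 122 and 131 CPM in Flna-labelled hearts and 147, 124 and 116 CPM in control hearts. All double mutant libraries lay below the other 9, and the difference was -0.60 ± 0.12 (SE, adjusted p = 0.00507) from control hearts and -0.47 ± 0.11 (SE, adjusted p = 0.0142) from Flna-labelled hearts, the second held in 16 of 18 alternatives. Kif20a, which encodes MKLP2, the motor that brings the passenger complex to the central spindle, had 162, 140.5 and 159 CPM in double mutant hearts, 224, 161 and 196 CPM in Asb2 cKO hearts, 209.6, 234 and 212 CPM in Flna-labelled hearts and 221, 201 and 209 CPM in control hearts. Kif20a fell, at -0.45 ± 0.10 (SE, adjusted p = 0.00873) against control hearts, held in 17 of 18 alternatives, and at -0.51 ± 0.093 (SE, adjusted p = 0.00475) against Flna-labelled hearts, with no overlap in either. Of the others, Kif11, the motor that separates the poles, was at -0.12 and -0.23 and did not pass. Nusap1, a spindle-associated protein, was at -0.083 and -0.053, and did not pass. Tpx2, which activates Aurora A on spindle microtubules, fell against Flna-labelled hearts alone, at -0.32 ± 0.092 (SE, adjusted p = 0.0298), a call held in 13 of 18 alternatives. Hmmr, a microtubule-associated protein, fell against control hearts alone, at -0.31 ± 0.10 (SE, adjusted p = 0.0477), and that call held in 7 of 18 alternatives.

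Of the 4 cytokinesis genes, Racgap1 fell in both comparisons and the other 3 passed in neither. Racgap1, the GTPase-activating partner of MKLP1 in centralspindlin, was at 102, 99.9 and 109 CPM in double mutant hearts, 127, 110.4 and 129.6 CPM in Asb2 cKO hearts, 161, 169 and 162 CPM in Flna-labelled hearts and 169, 170.3 and 174 CPM in control hearts. The double mutant libraries were below all others, the Asb2 cKO libraries came next, and Flna-labelled and control libraries lay above both. Its means were 103 ± 4.51 CPM in double mutant hearts and 171 ± 2.53 CPM in control hearts (mean ± SD, n = 3 each). Racgap1 had the smallest adjusted p of the 36 genes in both comparisons, at -0.72 ± 0.094 (SE, adjusted p = 0.00057) against control hearts and -0.66 ± 0.080 (SE, adjusted p = 0.000779) against Flna-labelled hearts. Prc1, which bundles the central spindle, was at 0.11 and -0.043. Ect2, the exchange factor that Racgap1 recruits to activate RhoA, was at -0.15 and -0.21, and anillin (Anln), the scaffold of the contractile ring, was at -0.22 and -0.14.

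Of the 4 genes of chromosome structure, 1 rose against control hearts and the others did not pass. Against Flna-labelled hearts 3 of the 4 lay below 0, with a median of −0.12, and 0 passed by limma, edgeR or DESeq2. Before adjustment 1 of the 4 had a p below 0.05, against 6113 of all 13954 genes tested. Ncapd2, a subunit of condensin I, was at 348, 292 and 274 CPM in double mutant hearts, 228, 266 and 215 CPM in Asb2 cKO hearts, 396, 329.5 and 312 CPM in Flna-labelled hearts and 220.3, 234 and 245 CPM in control hearts. Both groups labelled with floxed Flna stood above both groups without it. Ncapd2 rose in double mutant hearts, at 0.38 ± 0.12 (SE, adjusted p = 0.0316) against control hearts, a call held in 12 of 18 alternatives, and was at -0.18 ± 0.13 (SE, adjusted p = 0.3) against Flna-labelled hearts. In Flna-labelled over control hearts its value was larger, at 0.56 ± 0.11 (SE, adjusted p = 0.173), but missed the threshold in limma and edgeR and passed in DESeq2 (adjusted p = 0.00115). Top2a, topoisomerase IIα, which untangles sister chromatids, had 669, 619 and 649.7 CPM in double mutant hearts, 772, 629.9 and 680.3 CPM in Asb2 cKO hearts, 651, 706 and 665 CPM in Flna-labelled hearts and 597, 603 and 635 CPM in control hearts. The difference of 0.079 ± 0.10 (SE, adjusted p = 0.588) did not pass. Mki67, the proliferation antigen that coats mitotic chromosomes, stood at 274, 278 and 304 CPM in double mutant hearts, 337, 286 and 307 CPM in Asb2 cKO hearts, 271, 303 and 279 CPM in Flna-labelled hearts and 274, 284 and 313 CPM in control hearts. Its libraries overlapped across all 4 groups, with differences of -0.024 ± 0.10 (SE, adjusted p = 0.876) from control hearts and 0.0043 ± 0.090 (SE, adjusted p = 0.976) from Flna-labelled hearts. Ncapg, another condensin I subunit, was at -0.041 and -0.28 and did not pass.

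The longest of the 36 genes did not fall. Over the 36 genes the log2 fold change of double mutant over control hearts had a Spearman correlation of 0.56 with the deposited gene length, against 0.25 over all 14015 genes tested. The 18 genes of 4249 bases or less had a median of −0.43, with 12 falls, and the 18 longer genes a median of −0.13, with 5 falls and 1 rise. After a trend of fold change on length over all genes was removed, an alternative chosen after seeing the data, 18 of the 36 genes passed against control hearts, with a median of −0.28, and the correlation over the 36 genes was 0.27. In that setting Ccnb2 and Plk1 lost their calls, and Bub1b and Mki67 gained one, Mki67 as lower (−0.27, adjusted p = 0.0383). Against Flna-labelled hearts the correlation was 0.55 over the 36 genes and 0.10 over all genes, and 0.43 over the 36 genes once the trend was removed. Genes are not independent replicates, so these correlations are descriptions with no test, and the part of transcript length in the results was not tested further.

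**Figure D4:**
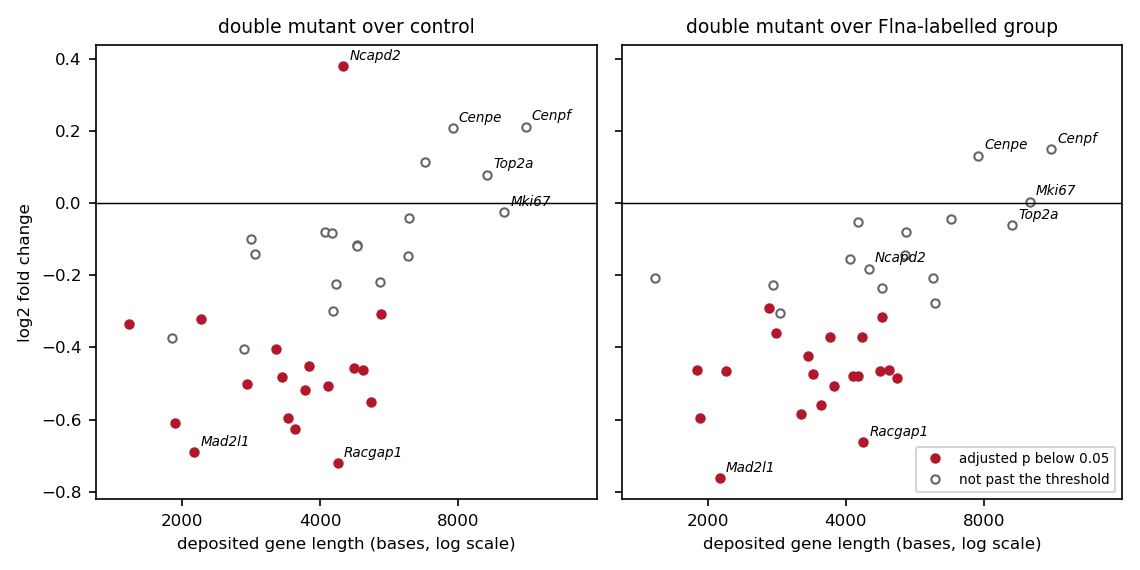
Log2 fold change of 36 genes against the deposited gene length in bases (log scale), for double mutant over control and double mutant over Flna-labelled hearts. Filled points passed an adjusted p of 0.05; the longest genes, Cenpe, Cenpf, Top2a and Mki67, lie near or above 0 in both panels, and none of them passed.

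With Asb2 floxed and Flna not floxed, differences were smaller. In Asb2 cKO hearts against control hearts 1 of 36 genes fell and 0 rose, where 21.6% of all genes passed, 10.9% downwards and 10.7% upwards. The 1 gene was Racgap1, at -0.48 ± 0.12 (SE, adjusted p = 0.0197), and its call was lost when any 1 control library was left out, with adjusted p between 0.00203 and 0.0863 over 18 alternatives. The median log2 fold change was −0.13, against −0.0053 over all genes, with 24 of 36 below 0. Before adjustment 9 of the 36 had a p below 0.05, a smaller share than the 5193 of all 14034 genes tested. The next smallest adjusted p values were those of Ccna2, at -0.38 ± 0.13 (SE, adjusted p = 0.0606), and Kif23, at -0.37 ± 0.13 (SE, adjusted p = 0.0625). The largest value below 0 was that of Birc5, at -0.52 ± 0.19 (SE, adjusted p = 0.0739), and Cenpf and Cenpe lay above 0 at 0.31 and 0.31. In 6 genes every Asb2 cKO library lay below every control library, as did 21.5% of all genes, and in 3 above, as did 20%. By edgeR 1 gene passed, by DESeq2 4 passed, and in a joint fit of all 4 groups 7 passed, as Ccna2, Birc5, Cdca8, Kif23 and Racgap1 fell and Cenpe and Cenpf rose. Calls over all genes also moved, to 2818 by edgeR, 3816 by DESeq2 and 4231 in the joint fit, against 3033 by limma on the 2 groups.

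The Asb2 cKO libraries differed among themselves. The median over 36 genes of the log2 deviation from the 12-library mean was 0.10, −0.21 and 0.051 in Asb2 cKO libraries 1, 2 and 3, against −0.14, −0.25 and −0.23 in double mutant hearts, 0.089, 0.20 and 0.14 in Flna-labelled hearts and 0.17, 0.099 and 0.049 in control hearts. Asb2 cKO library 2 sat with the double mutant libraries and the other 2 sat with the controls. Without library 2 the median difference of Asb2 cKO from control hearts was −0.042. Xist, the RNA of the inactive X chromosome, was at 571, 0.380 and 377 CPM in Asb2 cKO hearts, and at 0.0477, 0.546 and 9.34 CPM in double mutant hearts, 0.0506, 0.123 and 0.367 CPM in Flna-labelled hearts and 0.823, 302 and 106 CPM in control hearts. The low Asb2 cKO library was thus also the 1 with Xist near 0, and the part of this in the result was not tested. Double mutant and Flna-labelled libraries were all below 10 CPM of Xist, with double mutant library 3 the highest, at 9.34 CPM. Control libraries 2 and 3 and Asb2 cKO libraries 1 and 3 stood far above them. Comparisons of double mutant hearts with control or Asb2 cKO hearts, and of Flna-labelled with control hearts, were thus unbalanced in Xist. The part of Xist-linked differences in these comparisons, and in the falls between double mutant and Flna-labelled hearts, was not tested.

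No gene passed the test between double mutant and Asb2 cKO hearts. By limma 0 of 36 genes passed between them, where 0.0214% of all genes did, and edgeR and DESeq2 called 0 of the 36. At an unadjusted p below 0.05 were 4 of 36 (Ncapd2, Nek2, Ccnb1 and Kif20a), against 471 of all 14037 genes tested. The median log2 fold change was −0.15, against 0.016 over all genes, with 35 of 36 below 0. The exception was Ncapd2, at 0.36 ± 0.14 (SE, adjusted p = 0.999). Nek2 was at -0.27 ± 0.11 (SE, adjusted p = 0.999) and Ccnb1 at -0.31 ± 0.13 (SE, adjusted p = 0.999). Racgap1 averaged 103 ± 4.51 CPM in double mutant hearts and 122 ± 10.4 CPM in Asb2 cKO hearts (mean ± SD, n = 3 each). In 5 genes every double mutant library lay below every Asb2 cKO library, against 3.53% of all genes, and in 1 above, against 4.35%. Without Asb2 cKO library 2 the median was −0.26, and again 0 genes passed.

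No gene passed between Flna-labelled and control hearts either. By limma 0 passed, where 0.072% of all genes did, edgeR called 0 and DESeq2 called 1, Ncapd2. At an unadjusted p below 0.05 were 3 of 36 (Ncapd2, Aurkb and Ube2c), against 1822 of all 13891 genes tested. The median was 0.058, against 0.0022 over all genes. Aurkb was at 0.26 ± 0.11 (SE, adjusted p = 0.356). In 8 genes every Flna-labelled library lay above every control library, against 9.27% of all genes, and in 0 genes below, against 8.71%.

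Whether the difference between floxed and heterozygous Asb2 depended on floxed Flna was tested as an interaction over all 12 libraries, taking double mutant minus Flna-labelled less Asb2 cKO minus control. By limma 0 of 36 genes passed, where 0% of all genes did, and edgeR and DESeq2 called 0 of the 36. Before adjustment 6 of the 36 had a p below 0.05, against 1372 of all 13981 genes tested. The median was −0.19, so in the median the differences lay further below 0 where Flna was labelled as floxed, without a gene past the threshold. The smallest p values were those of Aurkb, at -0.51 ± 0.18 (SE, adjusted p = 0.442), Incenp, at -0.46 ± 0.17 (SE, adjusted p = 0.463), and Bub1b, at -0.37 ± 0.15 (SE, adjusted p = 0.494). These 2 comparisons share no library. Of the 20 genes that fell in double mutant against Flna-labelled hearts, 18 lay below 0 in Asb2 cKO against control hearts, as did 24 of all 36. Over the 36 genes the 2 sets of log2 fold changes had a Pearson r of 0.77 and a Spearman rho of 0.74, given as a description. These values were not computed over all genes, so they do not set the 36 genes apart. Both sets also went with gene length over the 36 genes, at a Spearman rho of 0.55 for double mutant over Flna-labelled and 0.56 for Asb2 cKO over control hearts.

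Markers of primitive red cells moved with the groups. The summed level of 12 erythroid markers was 371 to 609 CPM in double mutant hearts, 524 to 1223 CPM in Asb2 cKO hearts, 3087 to 3968 CPM in Flna-labelled hearts and 7492 to 8128 CPM in control hearts, with no marker at 0. All 12 fell in double mutant hearts against each of Flna-labelled and control hearts, and all 12 fell in Asb2 cKO hearts against control hearts. The counts of markers stand against 16.7% lower and 15.6% higher over all genes in double mutant against control hearts. The shares over all genes were 16.3% and 15.1% against Flna-labelled hearts, and 10.9% and 10.7% in Asb2 cKO against control hearts. Asb2 cKO libraries 1, 2 and 3 had erythroid sums of 524, 638 and 1223 CPM beside mitosis medians of 0.10, −0.21 and 0.051. Of 8 endocardial and endothelial markers, 4 rose and 0 fell in double mutant hearts in each comparison, with sums of 1081 to 1469 CPM, against 671 to 882 CPM in Flna-labelled and 779 to 960.4 CPM in control hearts. In Asb2 cKO against control hearts 1 of these 8 rose and 2 fell. Of 12 cardiomyocyte markers, 2 rose, near the share over all genes, and 0 fell by limma in double mutant against control hearts, with overlapping sums of 29318 to 44498 CPM in double mutant and 30931 to 45591 CPM in control hearts. Against Flna-labelled hearts, with sums of 18556 to 33880 CPM, all 12 lay above 0, with a median of 0.53, and 3 of them rose. Sums of 8 pharyngeal and epithelial markers were 345 to 581 CPM in double mutant hearts, 454 to 641 CPM in Asb2 cKO hearts, 243 to 485 CPM in Flna-labelled hearts and 239 to 329 CPM in control hearts. Against control hearts 2 of them rose in double mutant hearts and 4 in Asb2 cKO hearts. All 6 epicardium markers lay below 0 in double mutant against Flna-labelled hearts and 2 fell, while 0 passed against control hearts by limma. Of 5 neural crest markers tested, 1 rose in double mutant against control hearts and 0 passed against Flna-labelled hearts by limma. The part of cell composition in the results was not tested.

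**Figure D5:**
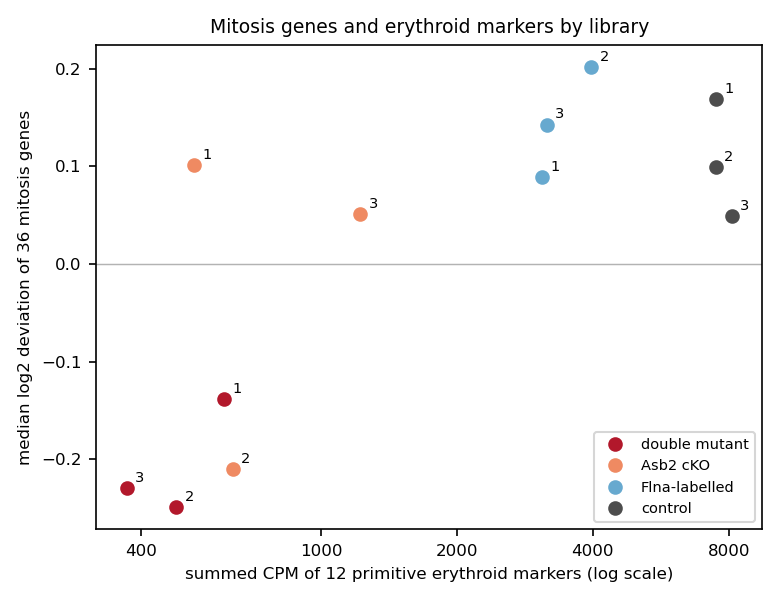
Median log2 deviation of 36 mitosis genes from the 12-library mean against the summed CPM of 12 primitive erythroid markers (log scale), 1 point a library, numbered within its group. Double mutant libraries lie at −0.14 to −0.25 with 371 to 609 CPM, and the Asb2 cKO libraries, with 524 to 1223 CPM, range between −0.21 and 0.10.

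Other genes of the cell cycle were set beside the mitotic ones, from 8 lists of 130 genes that hold none of the 36. Their counts stand against 16.7% lower and 15.6% higher over all genes in double mutant against control hearts, 16.3% and 15.1% against Flna-labelled hearts, and 10.9% and 10.7% in Asb2 cKO against control hearts. Most genes of the G1/S transition and DNA replication fell. In double mutant hearts 17 of 22 fell against control hearts and 20 of 22 against Flna-labelled hearts, and 0 rose in either by limma. The medians were −0.59 and −0.67. Ccne1, cyclin E1, averaged 25.7 ± 2.40 CPM in double mutant hearts and 76.1 ± 4.55 CPM in control hearts (mean ± SD, n = 3 each), a difference of -1.55 ± 0.12 (SE, adjusted p = 2.47e-05). Rrm2, the regulated subunit of ribonucleotide reductase, averaged 105 ± 9.08 CPM in double mutant hearts and 263 ± 9.65 CPM in control hearts (mean ± SD, n = 3 each), a difference of -1.32 ± 0.10 (SE, adjusted p = 2.84e-05). In Asb2 cKO hearts 7 of these 22 genes fell against control hearts, Ccne1 among them, at -1.14 ± 0.28 (SE, adjusted p = 0.0194). Of 5 G1 cyclins and CDKs, 2 fell against control hearts (Ccnd3 and Cdk4) and 2 against Flna-labelled hearts (Ccnd1 and Cdk4).

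Inhibitors and stress-responsive genes split. Of 15 CDK inhibitors and checkpoint kinases, 6 rose and 2 fell against control hearts, and 6 rose and 4 fell against Flna-labelled hearts. Cdkn1a, which encodes the CDK inhibitor p21, averaged 49.3 ± 3.24 CPM in double mutant hearts and 19.5 ± 2.52 CPM in control hearts (mean ± SD, n = 3 each), a difference of 1.32 ± 0.13 (SE, adjusted p = 0.000141). Ccng2, a cyclin associated with cell cycle exit, rose, at 1.66 ± 0.14 (SE, adjusted p = 4.65e-05), and Cdkn1b, which encodes p27, at 1.02 ± 0.12 (SE, adjusted p = 0.00043). Cdkn1c, which encodes p57, fell, at -1.09 ± 0.14 (SE, adjusted p = 0.000528).

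Among 23 genes that control transcription of mitotic genes, 8 fell and 2 rose against control hearts, and 11 fell and 1 rose against Flna-labelled hearts. E2f2, an activating E2F factor, averaged 5.24 ± 0.663 CPM in double mutant hearts and 12.1 ± 1.30 CPM in control hearts (mean ± SD, n = 3 each), a difference of -1.14 ± 0.18 (SE, adjusted p = 0.00174). Rb1, the retinoblastoma gene, rose, at 0.76 ± 0.14 (SE, adjusted p = 0.00359). Foxm1, a factor that activates late mitotic genes, fell against Flna-labelled hearts, at -0.50 ± 0.10 (SE, adjusted p = 0.0079), and was at -0.19 ± 0.11 (SE, adjusted p = 0.215) against control hearts. Of 17 further subunits of the anaphase-promoting complex and genes of mitotic exit, 5 fell against control hearts and 8 against Flna-labelled hearts, with no rise by limma.

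Of 27 other kinetochore and spindle genes, 10 fell and 2 rose against control hearts, and 12 fell and 2 rose against Flna-labelled hearts. Cenpm, a subunit of the constitutive centromere network, fell, at -0.97 ± 0.15 (SE, adjusted p = 0.00159), and Spc24, a subunit of the NDC80 complex, at -0.71 ± 0.14 (SE, adjusted p = 0.00476). The rises were those of Hjurp, the chaperone of CENP-A, at 0.68 ± 0.15 (SE, adjusted p = 0.00812), and of Ckap5, a microtubule polymerase, at 0.47 ± 0.10 (SE, adjusted p = 0.00739). Of 11 condensin and cohesin genes, 2 fell and 1 rose against control hearts, and of 10 other cytokinesis genes 2 fell and 1 rose, shares near those over all genes (16.7% lower, 15.6% higher). Those were Ncapg2 and Smc2 lower and Stag2 higher in the first list, and Cdca3 and Sept9 lower and Rock2, a kinase of the contractile ring, higher in the second.

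In the authors' deposited tables, at an FDR below 0.05, 15 of the 36 genes were lower and 1 higher in double mutant hearts against control hearts, 4 were lower in Asb2 cKO hearts against control hearts, 1 was higher in Flna-labelled hearts against control hearts, and 0 passed between double mutant and Asb2 cKO hearts. The shares of all genes passing in the authors' comparisons were not computed here, so these counts do not set the 36 genes apart.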

How the data were processed

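The 12 libraries hold total RNA of dissected embryonic hearts, purified with a Qiagen micro column kit, per the labels' protocols. Per the submitters' processing notes, STAR, the mm10 genome, HTSeq and edgeR were used; annotation, strand, versions and settings are not given in the sources used here. The authors deposited 4 pairwise tables of 15211, 15005, 15172 and 15124 genes. The expression signal the authors deposited is named CPM but rests on a scaled library size. Columns sum to 942334 to 1051675, and 100.0% of values are whole multiples of 1 read within 0.01 read (0.0239 to 0.038 CPM a read), whereas the plan had assumed plain CPM. The deposited log2 fold changes and p-values (with FDR) come from the authors' own comparisons and were copied only where named. The deposited gene length, in bases, served for levels per length and the length trend. A further 12 columns of numbers without a header were not used.

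The tables were joined on gene identifier, of which 99.1% were found in GENCODE M21. Genes were tested with limma 3.58.1 (trend, robust) in R 4.3.3 on log2(CPM + 0.5), filtered at a mean of 1 CPM, with Benjamini-Hochberg adjustment over all genes and a threshold of 0.05. Each fit used the 2 groups compared, and the interaction used all 4. Python 3.11.15, pandas 2.3.3 and matplotlib 3.10.9 made the tables and figures. Steps were tested on simulated data. Depth leaves counting error small beside the spread between libraries: the lowest median chi-square per gene over 12 pairs of replicates was 4.71.

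The 36 genes and the other lists were chosen with earlier results of these data known. The text gives every library for the 16 genes of smallest adjusted p in any comparison of 2 groups, for Mki67, Top2a, Ccnb1, Cdk1, Plk1 and Aurkb, and for the 3 genes of smallest p where fewer than 3 passed, 21 genes in all; other genes are given by fold change. Genes of the other lists were named after their values were seen. The labels do not say that replicate numbers mark pairs. Less the group means, like-numbered libraries had correlations of −0.46 to 0.43, all 3 above 0.1 in 0 of 6 pairs of groups, so no block was used. Alternatives were a pseudocount of 0.1 or 2, a filter at 5 CPM or none, scaling to the median of ratios or without hemoglobin genes, limma without trend and robust, a replicate block, a joint fit, leaving out each library, and count tests on the recovered reads with edgeR 4.0.16 and DESeq2 1.42.0. The count tests called 4382 and 5070 genes of all tested in double mutant against control hearts, where limma called 4523. Removal of a length trend (lowess span 0.3) was added after seeing the data.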

Additional observations from a re-analysis of the deposited data

How the results depend on the processing

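Of the 36 genes, 11 of the 18 called in double mutant against control hearts and 13 of the 20 called against Flna-labelled hearts passed in each of 18 alternatives, and 0 calls reversed. Leaving out 1 library gave 11 to 19 calls against control hearts (11 without double mutant library 2, where all genes called fell to 2875, against 4523) and 13 to 21 against Flna-labelled hearts (13 without double mutant or Flna-labelled library 2). Over all genes that second comparison gave 2712, 2776 and 2805 calls without double mutant library 2 and Flna-labelled libraries 2 and 1, against 4394. In Asb2 cKO against control hearts the 1 call became 4 in DESeq2, 7 in the joint fit, 2 with the length trend removed and 0 to 2 with 1 library left out. Over all genes its 3033 calls became 3816 in DESeq2, 4231 in the joint fit and 3131 with the length trend removed. They became 1771, 1581 and 2004 without control libraries 1 and 2 and Asb2 cKO library 2. In Flna-labelled against control hearts DESeq2 called 1 gene of the 36 and 244 of all genes, where limma called 10, edgeR 0, limma without trend and robust 0, the joint fit 2, the length-corrected fit 6, and fits without 1 library between 0 and 98. Between double mutant and Asb2 cKO hearts the median of the 36 genes ran from −0.26 to −0.10 with 1 library left out (−0.26 without Asb2 cKO library 2), and the 3 calls over all genes became 14 in DESeq2, 0 in the joint fit and 26 without that library. The interaction median became −0.29 without hemoglobin genes, and its 0 calls over all genes became 71 in DESeq2, 18 without Asb2 cKO library 2 and 1 without Flna-labelled library 2. The cause was not tested.

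With the replicate number as a block, which the labels and correlations do not support as pairs, 20 genes passed in double mutant against control hearts, 20 against Flna-labelled hearts and 0 in each other comparison, Asb2 cKO against control hearts included. Over all genes the block gave 4358 calls in double mutant against control hearts, against 4523 without it. Against Flna-labelled hearts it gave 5474, against 4394 without it. It gave 1557 calls in Asb2 cKO against control hearts and 1 in Flna-labelled against control hearts.

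With 3 libraries a group, some calls lay near the threshold, and the count of calls moved when 1 library was left out. The genes called in double mutant hearts kept their sign in all 18 alternatives, but 6 genes not called against control hearts (Cdc25b, Cenpf, Top2a, Ncapg, Mki67 and Prc1) and 5 not called against Flna-labelled hearts (Cdc25b, Cenpf, Nusap1, Hmmr and Mki67) had values on both sides of 0. With 1 library left out, the median of the 36 genes in Flna-labelled against control hearts ran from −0.0079 to 0.0857.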
